A study of Mus musculus with 2 samples.

Results

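Dendritic cells were picked out of single-cell RNA sequencing of 4T1 breast tumours, and 146 barcodes met the selection among 21664 that passed the quality filter and 22863 that were deposited. A barcode stands for 1 captured cell, and a unique molecular identifier (UMI) for 1 captured RNA molecule. The selection asked for at least 10 UMIs of Cd74, the invariant chain of MHC class II. It also asked for fewer than 5 UMIs per 10,000 of the macrophage complement genes C1qa, C1qb and C1qc summed, and for no UMI of the T cell gene Cd3e or the B cell gene Cd79a. Barcodes left by these terms were sorted into 3 kinds in a fixed order. The first kind, called type 1-like below, had at least 2 UMIs of Xcr1 and Clec9a summed. The second had at least 3 UMIs of Ccr7 and Fscn1 summed, with Ccr7 present, and is the mature kind. The last had Flt3 together with at least 1 UMI of Cd209a, Clec10a or Mgl2, and is the type 2 kind. The selection used measured values of the same cells, so the levels of these genes and every contrast between kinds are descriptions of the selection and were not tested.

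The 2 libraries were made from tumours that grew after 4T1 cells, an established mouse mammary carcinoma line, were placed in the mammary fat pad in Matrigel and saline buffer. One library came from mice given β-elemene, a plant sesquiterpene, at 30 mg/kg into the peritoneum each day, and the vehicle library from mice given the same volume of normal saline. Tumours were taken after 18 days. The strain, sex and age of the mice, how many tumours entered each library, and any pooling are not given in the sources used here. With 1 library for each treatment there was no replicate, so no test of the treatment could be made, and a difference between the libraries cannot be told apart from a difference between tumours or preparations. All intervals below are 95% intervals that cover counting error only.

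Dendritic cells take up antigen and show it to T cells on MHC class I and class II. Type 1 conventional dendritic cells, which depend on the transcription factors Irf8 and Batf3, carry the chemokine receptor Xcr1 and the dead-cell receptor Clec9a and are known for cross-presenting tumour antigen to CD8 T cells. Type 2 cells depend more on Irf4 and carry lectin receptors such as Cd209a, Clec10a and Mgl2. Either type can mature: it then makes Ccr7, the receptor that leads cells to lymph nodes, together with the actin-bundling protein Fscn1, the chemokines Ccl17 and Ccl22, and costimulatory and inhibitory ligands. Siglech marks plasmacytoid dendritic cells, a separate lineage that is known for type I interferon.

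The vehicle library held 63 dendritic barcodes of 10803 kept, and the β-elemene library 83 of 10861. In the vehicle library 24 were type 1-like, 35 were of the mature kind and 4 of the type 2 kind. In the β-elemene library the numbers were 40, 33 and 10. Median depth was similar between the libraries within each kind, at 11653.5 and 10582.5 UMIs in type 1-like barcodes, 9360 and 10212 in the mature kind, and 9926 and 10227.5 in the type 2 kind, while all kept barcodes had medians of 12690 and 10612. The libraries shared 37 barcode sequences, of which 0 were dendritic. Scrublet, a caller of barcodes that hold 2 cells, marked 3 dendritic barcodes in the vehicle library and 2 in the β-elemene library, all of the mature kind and all among its keratin barcodes described below.

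Dendritic barcodes made up 0.583% of kept barcodes with vehicle (0.448 to 0.746) and 0.764% with β-elemene (0.609 to 0.947). The difference of 0.181 percentage points had an interval from -0.038 to 0.403, which includes 0. Type 1-like barcodes made up 0.222% (0.142 to 0.330) and 0.368% (0.263 to 0.501). Their difference was 0.146 points, with an interval from 0.000344 to 0.298 whose lower end lies next to 0, and the ratio of the shares was 1.66 (0.975 to 2.88). The mature kind made up 0.324% and 0.304%, a difference of -0.0201 points (-0.174 to 0.132). The type 2 kind made up 0.0370% and 0.0921%, a difference of 0.0551 points (-0.0167 to 0.136) that rests on 4 and 10 barcodes. Type 1-like barcodes were thus the most numerous kind with β-elemene and the mature kind with vehicle: of all dendritic barcodes the mature kind was 55.6% with vehicle and 39.8% with β-elemene, a difference of -15.8 points (-31.0 to 0.495). Taken against the 1130 and 1442 barcodes that met the Cd74, C1q, Cd3e and Cd79a terms, a denominator chosen after seeing the data, dendritic barcodes were 5.58% and 5.76%. On that denominator type 1-like barcodes were 2.12% and 2.77%, and the mature kind 3.10% and 2.29%. The C1q ceiling bears on these shares, since among barcodes with Cd74 above the ceiling 13 of 1946 vehicle and 6 of 2250 β-elemene barcodes met the Xcr1 and Clec9a term. With no C1q ceiling, a setting chosen after seeing the data, type 1-like barcodes numbered 37 and 46, a difference of 0.081 points (-0.086 to 0.25). All kinds together then numbered 97 and 100, a difference of 0.023 points (-0.232 to 0.278).

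**Figure D1:**
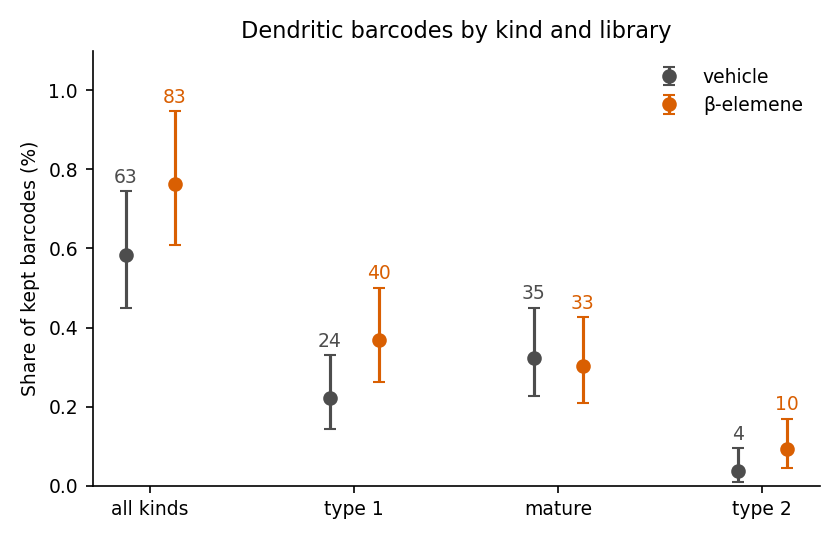
Share of kept barcodes (%) that met the selection, for all kinds together and for each kind, in the vehicle and the β-elemene library. Points are shares, bars are exact binomial 95% intervals for counting error only, and the numbers above the bars are barcodes. The intervals of the libraries overlap for every kind, and the type 1-like barcodes number 24 and 40.

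The type 1-like barcodes carried the genes of their name that the selection had not used. Naaa, a lysosomal lipid hydrolase typical of these cells, had a UMI in 23 of 24 vehicle and 37 of 40 β-elemene barcodes, with a median of 9.35 and 10.1 UMIs per 10,000 and highest values of 19.4 and 24.1. Its summed level was 923 and 1000 CPM (UMIs scaled so that each sum is 1000000), against 27.3 and 32.7 CPM in the other kinds together. Irf8 reached 869 and 959 CPM with a UMI in 23 and 40 barcodes. Wdfy4, which is needed for cross-presentation, stood at 746 and 633 CPM. The adhesion molecule Cadm1 stood at 368 and 268 CPM, the integrin Itgae at 390 and 347, and Batf3 at 108 and 79.0. Cd209a was at 0 in both libraries. The summed type 1 markers therefore fitted the label in both libraries, while single barcodes went against it or also held genes of other cells. Naaa was missing from 1 vehicle and 3 β-elemene barcodes. At least 3 UMIs of Ccr7 were in 1 and 1 barcodes, and at least 5 UMIs of the keratins Krt8 and Krt18 in 2 and 1. At least 20 UMIs of the macrophage gene Apoe were in 2 and 2, and at least 5 UMIs of the neutrophil gene S100a9 in 1 and 2.

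The selection genes themselves were split across these barcodes. Xcr1 had a UMI in 17 of 24 and 36 of 40 barcodes, and Clec9a in 22 of 24 and 35 of 40. Both genes were seen together in 15 of 24 and 31 of 40. In barcodes with Cd74 and a C1q level above the ceiling, used here as a macrophage gate with median depths of 13741.5 and 12385 UMIs, Xcr1 had a UMI in 0.514% and 0.356% of barcodes and Clec9a in 2.0% and 1.64%. Naaa had a UMI in 53.1% and 54.2% of them, at 67.7 and 72.9 CPM, so its presence alone does not mark a type 1 cell. In the T cell gate (Cd3e present and Cd74 under 10 UMIs, median depths 9453 and 7943 UMIs) Xcr1 had a UMI in 0% of 870 vehicle barcodes, which allows up to 0.423%, and in 0.128% with β-elemene. Naaa sits on chromosome 5 from 92257659 to 92278170, Xcr1 on chromosome 9 from 123852315 to 123862029 and Clec9a on chromosome 6 from 129408862 to 129424763 (GRCm38, the mm10 build, GENCODE vM21). At the edge of the selection, the 4 vehicle and 4 β-elemene barcodes with exactly 2 UMIs of Xcr1 and Clec9a had 691 and 582 CPM of Naaa. The 10 and 7 barcodes with exactly 1 UMI that fell into no kind had 120 and 221 CPM.

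The 10 leading genes outside the selection in type 1-like barcodes were ranked by their fold over the other kinds, with 20 CPM added to each level. Naaa came first, 20.0-fold in the vehicle and 19.3-fold in the β-elemene library. Mpeg1, which encodes a pore-forming protein of phagocytes that is used in antigen delivery to the cytosol, was 11.4-fold and 16.1-fold higher. The lysosomal thioesterase Ppt1 was 13-fold and 10.3-fold higher and the scavenger receptor Cd36 10.2-fold and 13.4-fold higher. Lrrk2, Plpp1, Ccser1, P3h2, Hepacam2 and Itgae followed, each between 7.39-fold and 17.2-fold. These are descriptions, since the kinds were defined on RNA of the same barcodes.

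The mature kind held more than 1 sort of barcode. Of its members, 8 of 35 with vehicle and 5 of 33 with β-elemene had at least 5 UMIs of the epithelial keratins Krt8 and Krt18. There was a clear gap, since all other members had 0 to 3 keratin UMIs and these had 9 to 206 and 13 to 455. The keratin barcodes were deep, with 21675 to 75200 UMIs with vehicle and 20492 to 86691 with β-elemene. They carried Krt18 at 1317 and 2793 CPM and the epithelial adhesion gene Epcam at 232 and 1027 CPM. Their Ccr7 was 88.3 and 32.5 CPM, their Fscn1 173 and 89.3, their Ccl17 314 and 8.12 and their Ccl22 71.9 and 0 CPM. Scrublet marked 3 of the 8 and 2 of the 5. Fscn1 is also made by the tumour cells: in the malignant gate (at least 10 keratin UMIs and no Ptprc, median depths 22189.5 and 22322 UMIs) 75.8% and 73.1% of barcodes had an Fscn1 UMI, so Fscn1 on its own does not separate these cells. The keratin barcodes thus carried epithelial genes together with Ccr7, against a plain reading of their label. They are left out of the mature comparison below unless stated, a choice made after seeing the data.

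The remaining mature barcodes, 27 with vehicle and 28 with β-elemene, were split by Fscn1 into a group with at least 1 UMI (16 and 16 barcodes) and a group with none (11 and 12). As sums, the Fscn1-positive group had genes of the mature kind: Ccr7 was 2583 and 2093 CPM, Ccl22 3271 and 3797, Ccl17 3929 and 3631, and the T cell chemokine Ccl5 3256 and 5112. Single barcodes varied, with Ccl22 from 0 to 80 UMIs with vehicle and from 1 to 125 with β-elemene. Cd40, a costimulatory receptor, was 356 and 331 CPM, and the NF-kB subunit Relb 425 and 347. Irf8 was 1408 and 1249 CPM and Il12b, a subunit of interleukin 12, 982 and 513. Cd209a and Clec10a were at 0 in all these barcodes. The third lectin of the selection, Mgl2, was 7.73 and 223 CPM, with at most 1 and 15 UMIs in a barcode. H2-Ab1, a class II chain, was 1671 and 2225 CPM.

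The Fscn1-negative group was different in both libraries, although Ccr7 had been asked of it too. Ccr7 was 902 and 508 CPM and Ccl22 98.3 and 617 CPM, while Ccl17 was 1349 and 2972. These chemokine sums rest on few barcodes: the median barcode had 4 and 3 UMIs of Ccl17, and the highest 100 of 151 with vehicle and 225 of 515 with β-elemene. Ccl22 had medians of 0 and 0.5 UMIs and highest values of 7 of 11 and 50 of 107. The lectins of type 2 cells were present, Mgl2 at 786 and 641 CPM, Cd209a at 286 and 104 and Clec10a at 179 and 69.2. Mgl2 had a UMI in 9 of 11 and 9 of 12 barcodes. Cd209a was in only 4 and 4, with 19 of its 32 vehicle UMIs in 1 barcode. In the macrophage gate Mgl2 had a UMI in 46.6% and 46.5% of barcodes and Clec10a in 11.2% and 9.87%, so their presence alone does not mark a type 2 cell. H2-Ab1 was 4609 and 5205 CPM and Irf8 143 and 98.1. The decoy receptor Il1r2 was 527 and 721 CPM and the interferon-induced membrane gene Ifitm1 2804 and 3739. Dividing-cell genes were also seen there, Mki67 at 277 and 150 CPM and Top2a at 536 and 121, against 15.5 and 16.5 and 0 and 8.27 in the Fscn1-positive group. So the sums of the Fscn1-positive barcodes fitted the label of mature cells. The Fscn1-negative barcodes carried Ccr7 beside summed UMIs of type 2 lectins, with Ccl17 in 7 of 11 and 7 of 12 barcodes. The split was drawn on the data and has no test.

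**Figure D2:**
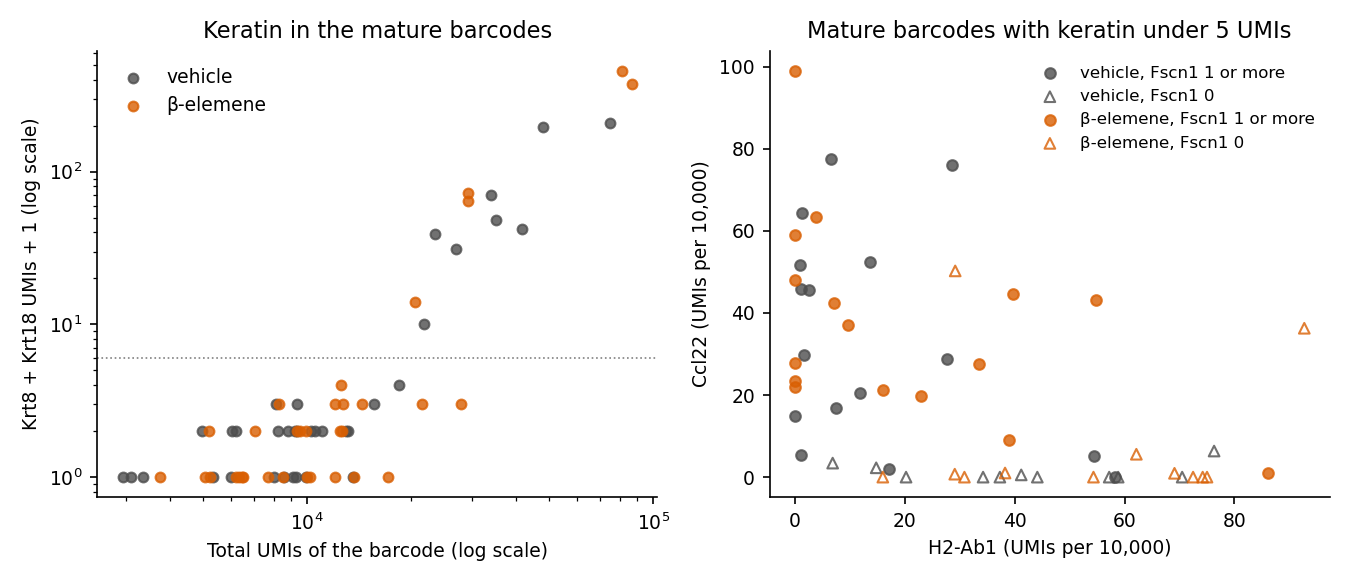
Left, Krt8 and Krt18 UMIs plus 1 against total UMIs of each mature barcode (both axes logarithmic), where the dotted line marks 5 keratin UMIs and 8 vehicle and 5 β-elemene barcodes lie above it. Right, Ccl22 against H2-Ab1 (UMIs per 10,000) in the 27 and 28 mature barcodes below that line, filled circles with Fscn1 and open triangles without. Most barcodes high in Ccl22 have Fscn1 and most high in H2-Ab1 do not.

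Across the mature kind as a whole, Ccl22 led the genes outside the selection, 27.3-fold and 39.0-fold over the other kinds. The fatty acid carrier Fabp5 was 10.6-fold and 11.3-fold higher and Ccl17 7.88-fold and 12.2-fold. Ccl5 was 9.10-fold and 5.89-fold higher. Cxcl1, Igfbp4, Tm4sf1, Krt18, Spp1 and Areg were among the same 10, and Krt18 was 6.04-fold and 25.7-fold higher, with most of its UMIs in the keratin barcodes. Ccl22 and Ccl17 lie near each other on chromosome 8, from 94745590 to 94751699 and from 94810453 to 94812036. At the Cd74 edge, 6 vehicle and 6 β-elemene mature barcodes had 10 to 14 Cd74 UMIs, and their H2-Ab1 was 75.0 and 190 CPM. Another 7 and 4 barcodes met the Ccr7 and Fscn1 terms with 5 to 9 Cd74 UMIs, and 24 and 17 with 0 to 4. Mature cells with little class II RNA can thus lie outside the selection. The malignant gate held 15 of 3306 and 7 of 2832 barcodes that met the Ccr7 and Fscn1 terms. Some of these lay outside the selection, and others were among its keratin barcodes.

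The type 2 kind was small and mixed. In each library 1 of its barcodes carried the plasmacytoid genes Siglech (20 and 12 UMIs) and Cox6a2 (10 and 14 UMIs), and all others had 0 of both. The other 3 vehicle and 9 β-elemene barcodes had Mgl2 at 936 and 544 CPM, Cd209a at 573 and 324, Clec10a at 392 and 324 and H2-Ab1 at 4979 and 7105. Il1r2 was 2294 and 858 CPM in them. Zbtb46, a transcription factor of conventional dendritic cells, had a UMI in 1 of 4 and 3 of 10 barcodes of the kind. Among type 1-like barcodes it was seen in 10 of 24 and 12 of 40. Among mature barcodes without keratin it was seen in 16 of 27 and 19 of 28. In the malignant gate 15.82% and 12.99% of barcodes had a Zbtb46 UMI, so its presence alone does not mark a dendritic cell. The leading genes over the other kinds were those of many myeloid cells: the adaptor Tyrobp (1526 and 2196 CPM, 3.44-fold and 4.30-fold), Dab2, Cfp, Napsa, Ptgs2, Fcho2, the Fc receptor chain Fcer1g, Tgfbi, Wfdc17 and Smc6. The lectins chosen by the selection did not by themselves mark this kind, since 159 and 129 barcodes had Cd209a, Clec10a or Mgl2 without Flt3 and were in no kind. With 4 and 10 barcodes no comparison of genes between libraries was drawn in this kind.

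**Figure D3:**
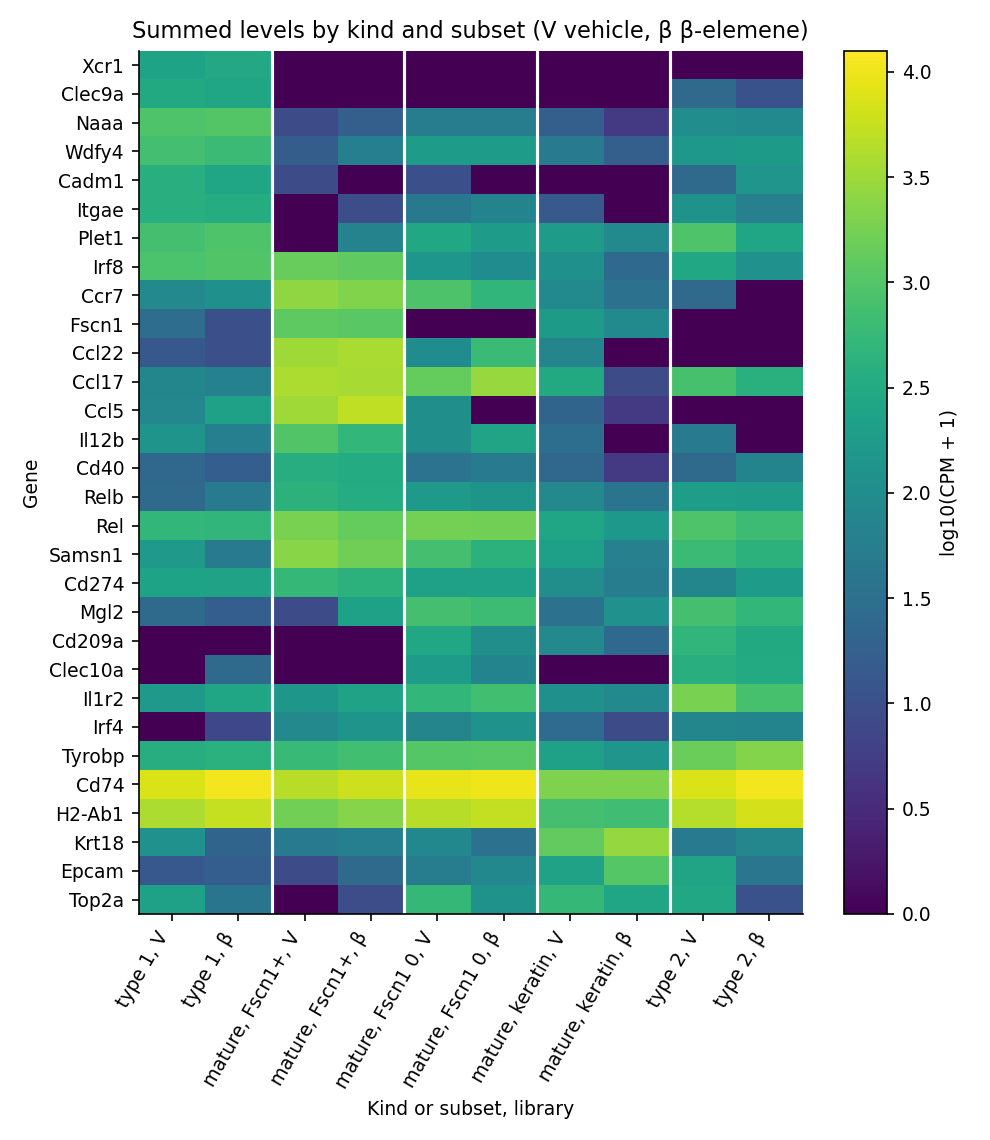
Summed level of 30 genes (rows) in the type 1-like barcodes, the 3 groups of the mature kind and the type 2 kind, each in the vehicle (V) and β-elemene (β) library, as log10 of CPM plus 1 in colour. Xcr1, Clec9a and Naaa are brightest in the type 1 columns, Ccl22, Ccl5 and Cd40 in the Fscn1-positive mature columns, Krt18 in the keratin columns, and Mgl2 and Cd209a in the Fscn1-negative mature and type 2 columns, in both libraries.

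Between the libraries, UMIs were summed over the barcodes of a kind, scaled to the total of the sum, and compared as the ratio of β-elemene to vehicle. A gene is called past 1.5-fold where the ratio was at least 1.5 or at most its inverse and its interval left out 1, among genes with at least 50 UMIs over both sums. In type 1-like barcodes 2237 genes had that many UMIs, in sums of 315238 and 444200. Of them 104 were past 1.5-fold higher with β-elemene (4.65%) and 218 lower (9.75%), and the median over all was -0.09 on the log2 scale. With scaling by the median of ratios the split was 148 higher and 160 lower, so the balance of directions depends on the scaling.

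Genes of MHC class II presentation were mostly higher in the β-elemene type 1-like barcodes. Their median log2 ratio was 0.43 over 10 measured genes, and 2 of 10 were past 1.5-fold higher beside 4.65% of all genes. Those 2 were H2-DMb1 and H2-DMa, which encode chains of the peptide exchanger that loads class II. Another gene of the exchanger, H2-DMb2, went the other way in the 22 and 39 barcodes with fewer than 5 keratin UMIs. It was 144 and 88.5 CPM there, a ratio of 0.613 (0.382 to 0.984). In that setting, chosen after seeing the data, 2 of 10 class II genes were past 1.5-fold higher and 1 lower. H2-DMb1 was 257 CPM with vehicle and 495 with β-elemene, a ratio of 1.93 (1.49 to 2.52), and H2-DMa 346 and 576, a ratio of 1.67 (1.33 to 2.10). H2-DMa had a UMI in 20 of 24 and 40 of 40 barcodes. The class II chains themselves had ratios below 1.5: H2-Ab1 had a median of 44.1 UMIs per 10,000 (9.21 to 83.1) with vehicle and 56.2 (12.8 to 90.1) with β-elemene, and a ratio of sums of 1.40 (1.31 to 1.5), H2-Aa 1.35 and H2-Eb1 1.33. The barcodes of the libraries overlapped widely. Cd74 was 7496 and 10826 CPM, a ratio of 1.44 (1.38 to 1.52), but was used in the selection. Ciita, the master regulator of these genes, was not higher: 149 and 106 CPM, a ratio of 0.71 (0.463 to 1.09).

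The class II chains stood higher with β-elemene in other cells too. The ratio of H2-Ab1 was 1.22 in the macrophage gate, 1.47 in a monocyte gate (at least 2 UMIs of Ly6c2 with Ccr2), 1.35 in the malignant gate and 1.12 in the T cell gate, whose UMIs of this gene may come from free RNA. Whether free RNA had a part in the dendritic values was not tested. In the same gates Cd74 had ratios of 1.25, 1.41, 1.58 and 1.20.

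MHC class I genes were also mostly higher in type 1-like barcodes. Over 15 measured genes the log2 ratios had a median of 0.34, 13 of them were above a ratio of 1 and 2 were past 1.5-fold higher, beside 4.65% of all genes. H2-D1, a class I heavy chain, was 1335 CPM with vehicle and 2049 with β-elemene (ratio 1.53, 1.36 to 1.73). Its median was 10.4 UMIs per 10,000 with vehicle and 20.6 with β-elemene, over overlapping ranges of 3.73 to 33.5 and 6.79 to 52.6. Psmb9, a subunit of the immunoproteasome, which cuts peptides for class I, was 574 and 903 CPM (ratio 1.57, 1.32 to 1.88). The partner subunit Psmb8 had a ratio of 1.49, H2-K1 1.35 and B2m 1.20. The peptide transporter genes Tap1 and Tap2 had ratios of 1.26 (0.872 to 1.83) and 1.20 (0.723 to 2.03). As with class II, H2-D1 was also higher in the macrophage gate (1.31), the monocyte gate (1.34), the malignant gate (1.37) and the T cell gate (1.28), and Psmb9 by 1.42, 1.56, 1.47 and 1.59.

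Among genes induced by interferon gamma, 4 of 9 measured were past 1.5-fold higher, beside 4.65% of all genes, with a median of 0.55 on the log2 scale. Cxcl9, the chemokine that draws Cxcr3-bearing T cells, was 63.4 and 338 CPM, a ratio of 5.32 (3.33 to 8.96). It had a UMI in 2 of 24 vehicle barcodes (8.33%, 1.03 to 27.0) and 14 of 40 β-elemene barcodes (35.0%, 20.6 to 51.7). When each barcode was thinned to 5000 UMIs, leaving out 2 shallower β-elemene barcodes, the shares were 8.33% and 28.9%. Of the vehicle UMIs 18 came from a single barcode, and the highest β-elemene barcode had 38. With the Cxcl9 UMIs of the highest barcode of each library taken out and the totals kept, the ratio was 39.7. That value is set against very few vehicle UMIs, since only 2 vehicle barcodes had any, so its size is not a guide to the difference. Cxcl9 in other cells did not follow one direction: it was 1.00 in the macrophage gate, 1.78 in the monocyte gate, 0.72 in the malignant gate and 0.46 in the T cell gate, where 5.29% and 2.70% of barcodes had a UMI.

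The other genes past the fold in that group were spread unevenly over the barcodes. The GTPase gene Iigp1 was 15.9 and 153 CPM (ratio 9.65, 3.94 to 30.7) with a UMI in 4 and 7 barcodes. The serpin Serpina3g was 22.2 and 101 CPM (ratio 4.56, 2.04 to 12.0) in 2 and 8 barcodes. Irf1, a transcription factor of the same response, was 44.4 and 90.1 CPM (ratio 2.03, 1.08 to 4.04) in 9 and 19 barcodes. Any of these 4 genes was seen in 11 of 24 and 27 of 40 barcodes, and Cxcl9 came with Iigp1 or Serpina3g in 2 of its 2 vehicle and 7 of its 14 β-elemene barcodes. Without the β-elemene barcode that was highest in it, the ratio of Irf1 was 1.62 (0.835 to 3.29). Markers of other cells moved beside this group. T and NK cell markers summed to 12.7 and 113 CPM, 42 of the 50 β-elemene UMIs being in 1 barcode, and of 14 such markers 12 were at 0 with vehicle and 5 with β-elemene. Neutrophil markers summed to 577 and 761 CPM, with 4 and 5 of 11 at 0. Of the 3 measured, S100a8 (1.51) and Il1r2 (1.70) were past the fold higher, beside 4.65% of all genes. Both rested on few barcodes, since 78 of the 98 β-elemene UMIs of S100a8 were in 1 barcode, and 1 β-elemene barcode held 43 UMIs of Il1r2. The share of barcodes with an Il1r2 UMI was lower with β-elemene, 16 of 24 with vehicle and 15 of 40. The part of these markers of other cells in the differences was not tested. Ifngr1, a chain of the interferon gamma receptor, had a ratio of 1.20 (0.887 to 1.63) and Cd274, the gene of PD-L1, 0.97 (0.717 to 1.33).

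Of 11 measured type I interferon genes 3 were past 1.5-fold lower with β-elemene, beside 9.75% of all genes, and 3 were above a ratio of 1. The median over the 11 was -0.35 (log2). These were Ifit2 (136 and 45.0 CPM, ratio 0.330, with a UMI in 4 and 3 barcodes), Stat2 (130 and 67.5 CPM, ratio 0.519) and Irf7 (190 and 122 CPM, ratio 0.639). All 3 calls rested on 1 vehicle barcode each: without the barcode highest in the gene, Ifit2 had a ratio of 2.28 (0.883 to 6.94), Stat2 0.733 (0.423 to 1.27) and Irf7 1.20 (0.75 to 1.95). Isg15 had a ratio of 0.688 (0.482 to 0.983), outside the call.

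Of 7 measured cell cycle genes 4 were past 1.5-fold lower in type 1-like barcodes with β-elemene, beside 9.75% of all genes, and the median over the 7 was -0.72 (log2). Mki67 was 197 and 47.3 CPM (ratio 0.24, 0.139 to 0.400) with a UMI in 6 of 24 and 5 of 40 barcodes. The topoisomerase Top2a was 222 and 38.3 CPM (ratio 0.172, 0.0951 to 0.296) in 7 and 5 barcodes. Hmgb2, a chromatin protein, was 752 and 367 CPM (ratio 0.488) and Tuba1b 238 and 144 CPM (ratio 0.606). A single vehicle barcode, which also held 14 UMIs of Krt8 and 21 of Krt18, had 31 of the 62 vehicle UMIs of Mki67 and 47 of the 70 of Top2a. Without it the ratios were 0.438 (0.239 to 0.787) and 0.478 (0.24 to 0.934). Tuba1b had a ratio of 0.739 (0.508 to 1.08) without the vehicle barcode highest in it. With the 2 vehicle and 1 β-elemene keratin barcodes left out, chosen after seeing the data, 5 cell cycle genes still had 50 UMIs and 1 of them was lower, Hmgb2 (0.566). After thinning, Mki67 was seen in 20.8% (7.13 to 42.2) and 10.5% (2.94 to 24.8) of barcodes, so the share with Mki67 did not differ beyond counting error. Mki67 was also lower in the monocyte gate (0.58), and its ratio was 0.87, 0.91 and 0.87 in the macrophage, malignant and T cell gates.

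Identity genes of type 1 cells that the selection had not used had 0 of 16 members past 1.5-fold higher and 3 lower, beside 9.75% of all genes lower, around a log2 median of -0.20. Those were the small GTPase Rab7b (228 and 124 CPM, ratio 0.542), the surface glycoprotein Cd24a (336 and 223 CPM, 0.663) and Ifi205 (171 and 99.1 CPM, 0.578). Without the vehicle barcode highest in each, Cd24a had a ratio of 0.75 (0.555 to 1.01) and Ifi205 0.659 (0.423 to 1.03). Genes of the NF-kB pathway had a median of -0.57, with 2 of 9 lower beside the same 9.75%: Traf3 (ratio 0.458) and the kinase Map3k14 (0.617), the latter of the noncanonical branch. Their ratios were 0.652 (0.335 to 1.26) and 0.702 (0.479 to 1.03) without the vehicle barcode highest in each. Pdcd1lg2, the gene of PD-L2, was 152 and 63.0 CPM (ratio 0.414, 0.25 to 0.673) in 10 and 12 barcodes. Of 21 measured heat shock and early response genes, which dissociation of tissue is known to induce, 13 were above a ratio of 1, 4 were past 1.5-fold higher beside 4.65% of all genes, and 1 was lower, Ier3 (0.636). The 4 were Fos (ratio 1.74), Jund (1.70), Dusp1 (2.87) and Zfp36 (1.55). Their part in the other differences was not tested.

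By the rule for single genes, the highest ratios in type 1-like barcodes were those of Pvr, Entpd1, Hhex, Ildr1 and Rilpl2. Pvr, the ligand of the T cell receptors Cd226 and Tigit, was 28.6 and 92.3 CPM (ratio 3.23, 1.55 to 7.57) with a UMI in 7 and 23 barcodes. Entpd1, the ectonucleotidase CD39, was 50.8 and 153 CPM (ratio 3.02, 1.73 to 5.57) in 8 and 14 barcodes, and its ratio was 5.18 without the vehicle barcode highest in it. The highest barcodes held 7 vehicle and 17 β-elemene UMIs of Entpd1, and leaving out the β-elemene one instead would lower the ratio. The homeobox factor Hhex was 53.9 and 158 CPM (ratio 2.92, 1.70 to 5.30) in 9 and 23 barcodes. Ildr1 and Rilpl2 had ratios of 2.48 and 2.47. In the macrophage gate the ratios of Pvr, Entpd1 and Hhex were 0.99, 0.99 and 1.05, and Pvr was 0.76 in the malignant gate. The lowest ratios were those of the actin-binding coronin Coro2a (152 and 31.5 CPM, ratio 0.207, 0.105 to 0.382, in 14 and 7 barcodes), Asph (0.246), Pcgf5 (0.274), Chn2 (0.329) and Slc4a7 (0.355). Coro2a had a ratio of 1.03 in the macrophage gate and 0.55 in the T cell gate.

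**Figure D4:**
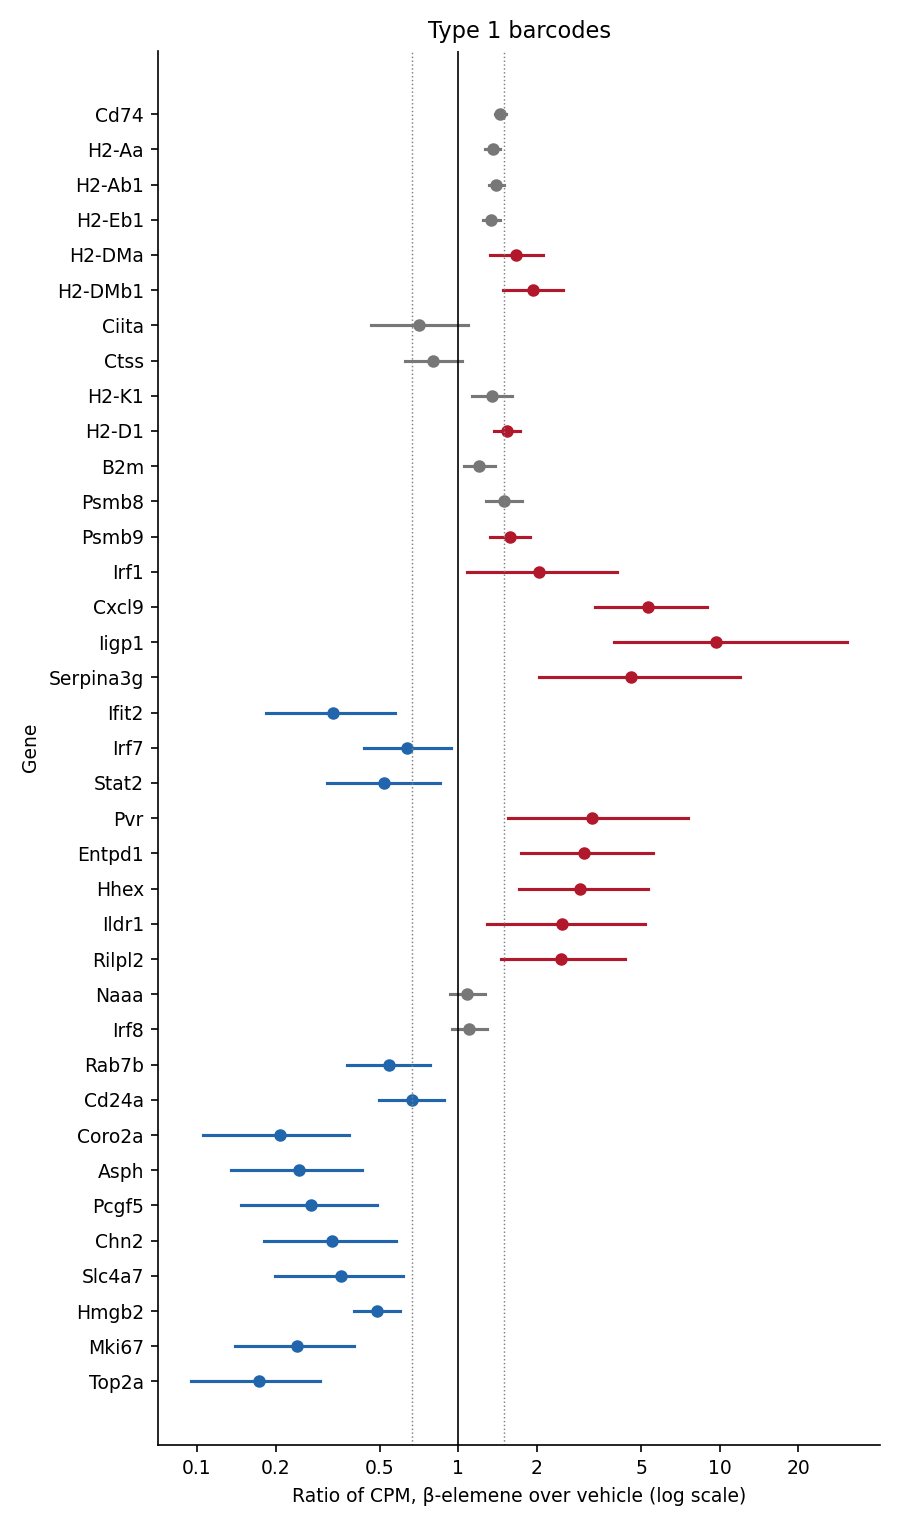
Ratio of CPM, β-elemene over vehicle, of 37 genes in the type 1-like barcodes (24 and 40), on a log axis. Bars are exact 95% intervals for counting error only, dotted lines mark the 1.5-fold limits, and red and blue mark genes past them higher and lower. The class II and class I genes drawn lie to the right of 1 except Ciita and Ctss, with ratios past 1.5 for H2-DMa, H2-DMb1, H2-D1 and Psmb9. Not all measured members are drawn: 7 of 10 class II and 13 of 15 class I genes had a ratio above 1. Cxcl9, Iigp1 and Serpina3g have the highest ratios.

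In the mature kind as a whole 3381 genes were compared, of which 201 were past 1.5-fold higher with β-elemene (5.94%) and 398 lower (11.8%). The median over all genes was -0.08, and with scaling by the median of ratios the split was 276 higher and 308 lower. The keratin barcodes weigh heavily in these sums: without them 241265 of 547157 UMIs were left with vehicle and 294193 of 540539 with β-elemene. Markers of malignant epithelium had 8 of 11 measured genes past 1.5-fold higher, beside 5.94% of all genes, and a summed level of 3304 and 5063 CPM, against 622 and 1006 CPM without the keratin barcodes. The 5 highest ratios by the rule were Lilr4b (3.22), Tent5a (3.12), Gypc (2.83), Tbc1d9 (2.47) and Ifitm1 (815 and 1878 CPM, ratio 2.30). The 5 lowest were Fosl1 (0.169), Lmo4 (0.308), Stk3 (0.309), Itga2 (0.323) and Itga5 (0.323), the latter ones integrins that epithelial and tumour cells also make.

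Without the keratin barcodes 1538 genes were compared in 27 and 28 barcodes, 123 past 1.5-fold higher (8%) and 130 lower (8.45%), with a median over all of -0.023. The chemokines that lead this kind had ratios near 1. Ccl22 was 1799 CPM with vehicle and 1924 with β-elemene, a ratio of 1.07 (0.942 to 1.22), with a UMI in 19 of 27 and 22 of 28 barcodes and ranges of 0 to 77.6 and 0 to 99.0 UMIs per 10,000. Ccl17 was 2731 and 3243 CPM (ratio 1.19, 1.07 to 1.31) and Ccl5 had a ratio of 1.17 (1.03 to 1.33). The groups split by Fscn1 did not weigh the same in these sums in both libraries. Their median depth was 8648 and 6801 UMIs with Fscn1 and 9350 and 12602.5 without. Within the groups Ccl22 was 3271 and 3797 CPM with Fscn1 and 98.3 and 617 without. Ccl17 was 3929 and 3631 CPM with Fscn1 and 1349 and 2972 without. The part of this mix in the ratios over mature barcodes was not tested. Of the selection genes, given as a description, Ccr7 was 1803 and 1159 CPM and Fscn1 647 and 456.

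Of 20 measured identity genes of mature dendritic cells outside the selection, 7 were past 1.5-fold lower with β-elemene, beside 8.45% of all genes, and 0 were past it higher. The log2 ratios had a median of -0.44, and 5 of the 20 genes were above a ratio of 1. Samsn1, a signalling adaptor, was 1608 and 908 CPM (ratio 0.564, 0.481 to 0.661). It had a UMI in all 27 and 28 barcodes, with medians of 19.2 (0.643 to 43.1) and 9.82 (0.467 to 34.0) per 10,000, so the median was lower over overlapping ranges. The Rab regulator Tbc1d4 was 1347 and 636 CPM (ratio 0.472, 0.392 to 0.567) and the amino acid oxidase Il4i1, which dampens T cells, 448 and 197 CPM (ratio 0.440, 0.314 to 0.612). Tmem123 (0.586), Cd63 (0.634), Il21r (0.562) and Zmynd15 (0.547) made up the rest, but without the vehicle barcode highest in each Cd63 was 0.693 (0.526 to 0.912) and Zmynd15 0.749 (0.385 to 1.45). Samsn1 was also lower in the macrophage (0.75), monocyte (0.57), malignant (0.63) and T cell (0.85) gates.

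Within the Fscn1-positive barcodes alone Samsn1 and Tbc1d4 also had lower sums with β-elemene, Samsn1 at 2336 and 1596 CPM and Tbc1d4 at 2019 and 1009 CPM, and within the Fscn1-negative ones at 768 and 427 CPM and at 572 and 375 CPM. Flt3, the receptor for the growth factor of dendritic cells, was 253 and 95.2 CPM over the mature barcodes without keratin (ratio 0.376, 0.232 to 0.598), with a UMI in 18 of 27 and 15 of 28. Thinned to 5000 UMIs, the share with Flt3 was 52.2% (30.6 to 73.2) of 23 and 40.7% (22.4 to 61.2) of 27 barcodes.

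Cytokines and inflammatory chemokines differed in both directions. Il1b was 2164 and 3250 CPM (ratio 1.5, 1.35 to 1.67), with a UMI in 24 of 27 and 26 of 28 barcodes and medians of 10.5 and 19.1 per 10,000. Its ratio was 1.35 (1.21 to 1.52) without the β-elemene barcode highest in it. Il12b was 576 and 357 CPM (ratio 0.620, 0.476 to 0.804) in 14 and 10 barcodes, but 57 of its 139 vehicle UMIs were in 1 barcode, and the ratio without it was 1.04 (0.769 to 1.40). Of 9 measured chemokines 3 were past 1.5-fold higher, beside 8% of all genes: Cxcl2, which draws neutrophils (298 and 1169 CPM, ratio 3.92, 3.03 to 5.12, in 17 and 19 barcodes), Ccl6 (33.2 and 177 CPM, ratio 5.33, in 6 and 10) and Ccl4 (20.7 and 200.5 CPM, ratio 9.68, in 2 and 6). Without the β-elemene barcode highest in each, Ccl6 had a ratio of 3.50 (1.59 to 8.77) and Ccl4 3.9 (1.45 to 13.2). Without the vehicle one Ccl4 had a ratio of 47.4, against the 1 vehicle UMI then left. Beside these, neutrophil markers summed to 435 and 1101 CPM in the mature barcodes without keratin, and mast and basophil markers to 0 and 275 CPM. Of 11 neutrophil markers 6 were at 0 with vehicle and 3 with β-elemene, and of 9 mast and basophil markers 9 and 5. Their part in the differences was not tested.

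Of 5 measured genes by which mature cells costimulate T cells 0 were past the fold, and of 8 inhibitory ones 1 was higher, beside 8% of all genes, and 1 lower, beside 8.45%. The lower one was Il4i1, given above. The higher one was Socs3, a feedback inhibitor of cytokine signalling (104 and 194 CPM, ratio 1.87, 1.15 to 3.12), whose ratio was 1.56 (0.93 to 2.66) without the β-elemene barcode highest in it. Of the costimulatory genes, Cd80 had a ratio of 0.719 (0.566 to 0.912), Cd86 1.01 (0.843 to 1.21), Cd40 0.787 (0.519 to 1.19) and Cd83 1.04 (0.847 to 1.28). Cd274 had a ratio of 0.786 (0.583 to 1.06) with a UMI in 22 of 27 and 25 of 28 barcodes. The NF-kB subunits that drive maturation were abundant, Rel at 1836 and 1547 CPM and Nfkb1 at 1355 and 1190 CPM, against 523 and 504 and 387 and 259 CPM in type 1-like barcodes. Between libraries, the log2 median over 16 NF-kB genes was -0.10, with the inhibitor Tnfaip3 higher (2.0, 1.38 to 2.95) and the inhibitor Nfkbie lower (0.463, 0.261 to 0.80).

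The class II, class I and interferon gamma groups had medians nearer 0 in these barcodes than in the type 1-like ones, but a difference between the kinds was not tested. Of the class II genes, around a log2 median of 0.23, 0 of 9 were past 1.5-fold higher, beside 8% of all genes. Lower, beside 8.45% of all genes, was 1 of the 9. This was H2-DMb1 (244.5 and 150 CPM, ratio 0.612, 0.404 to 0.919), the opposite direction to its ratio in type 1-like barcodes. Without the vehicle barcode highest in it that ratio was 0.801 (0.514 to 1.25). H2-Ab1 had a ratio of 1.31 (1.19 to 1.44). The class I median was 0.0053 and the interferon gamma median 0.051, the latter with 0 of 5 genes past the fold either way, beside the same 8% and 8.45%. Type I interferon genes had a median of -0.60 over 5 measured, with 3 past the fold lower, beside 8.45% of all genes, and 1 higher, beside 8%. Bst2 (261 and 91.8 CPM, ratio 0.352, 0.215 to 0.560), Isg15 (0.480) and Ifi27l2a (0.658) were lower and Ifitm3 (618 and 1285 CPM, ratio 2.08) was higher. Isg15 was 0.914 (0.488 to 1.73) and Ifi27l2a 0.811 (0.629 to 1.05) without the vehicle barcode highest in each. Bst2 had ratios of 1.57, 1.19, 1.40 and 1.47 in the macrophage, monocyte, malignant and T cell gates, so its direction there was the opposite.

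Among genes of glycolysis 4 of 11 were past 1.5-fold higher, beside 8% of all genes, around a log2 median of 0.41. They were the pyruvate kinase gene Pkm (199 and 428 CPM, ratio 2.15), Eno1 (2.05), Tpi1 (1.64) and Pfkp (1.56). Without the β-elemene barcode highest in each, Tpi1 was 1.25 (0.848 to 1.86) and Pfkp 1.41 (0.941 to 2.15). Of 6 measured hypoxia genes 3 were higher, beside the same 8%, with a median of 0.84: P4ha1 (2.60), Hilpda (211 and 486 CPM, 2.30) and Ero1l (3.13, but 1.37 without its UMIs in the top barcode of each library). P4ha1 was 2.0 (0.956 to 4.27) without its highest β-elemene barcode. Cell cycle genes had a median of -0.75 with 4 of 6 lower, beside 8.45% of all genes, among them Top2a (249 and 74.8 CPM, ratio 0.301, 0.176 to 0.498) in 5 and 7 barcodes. Without the vehicle barcode highest in each, Top2a had a ratio of 0.49 (0.273 to 0.863), and 2 others of the 4 were no longer past the fold, Hmgb2 at 0.999 (0.71 to 1.41) and Tuba1b at 0.71 (0.494 to 1.02). Of 17 measured transcription factors of the lineage 3 were past the fold higher, beside 8% of all genes, and 3 lower, beside 8.45%. Their log2 median was -0.34. The list included Zeb2 (162 and 377 CPM, ratio 2.33, 1.61 to 3.45) and Cebpb (1.59, but 1.17 without its highest β-elemene barcode) higher, and Tcf4 (0.547) and Etv3 (0.611) lower.

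By the rule, the other single genes with high ratios in these barcodes were N4bp1 (41.5 and 136 CPM, 3.28, and 5.24 without its highest vehicle barcode), Gypc (2.80), the receptor gene Lilr4b (82.9 and 228 CPM, 2.75, 1.65 to 4.78), Elovl5 (2.52) and the early gene Nr4a1 (2.41). For N4bp1, leaving out the highest β-elemene barcode instead would lower the ratio. Those with low ratios beside Flt3 and Bst2 were the proton-sensing receptor Gpr65 (199 and 64.6 CPM, 0.325, 0.180 to 0.563), Ankrd33b (0.344) and the interleukin 10 receptor chain Il10ra (0.389).

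**Figure D5:**
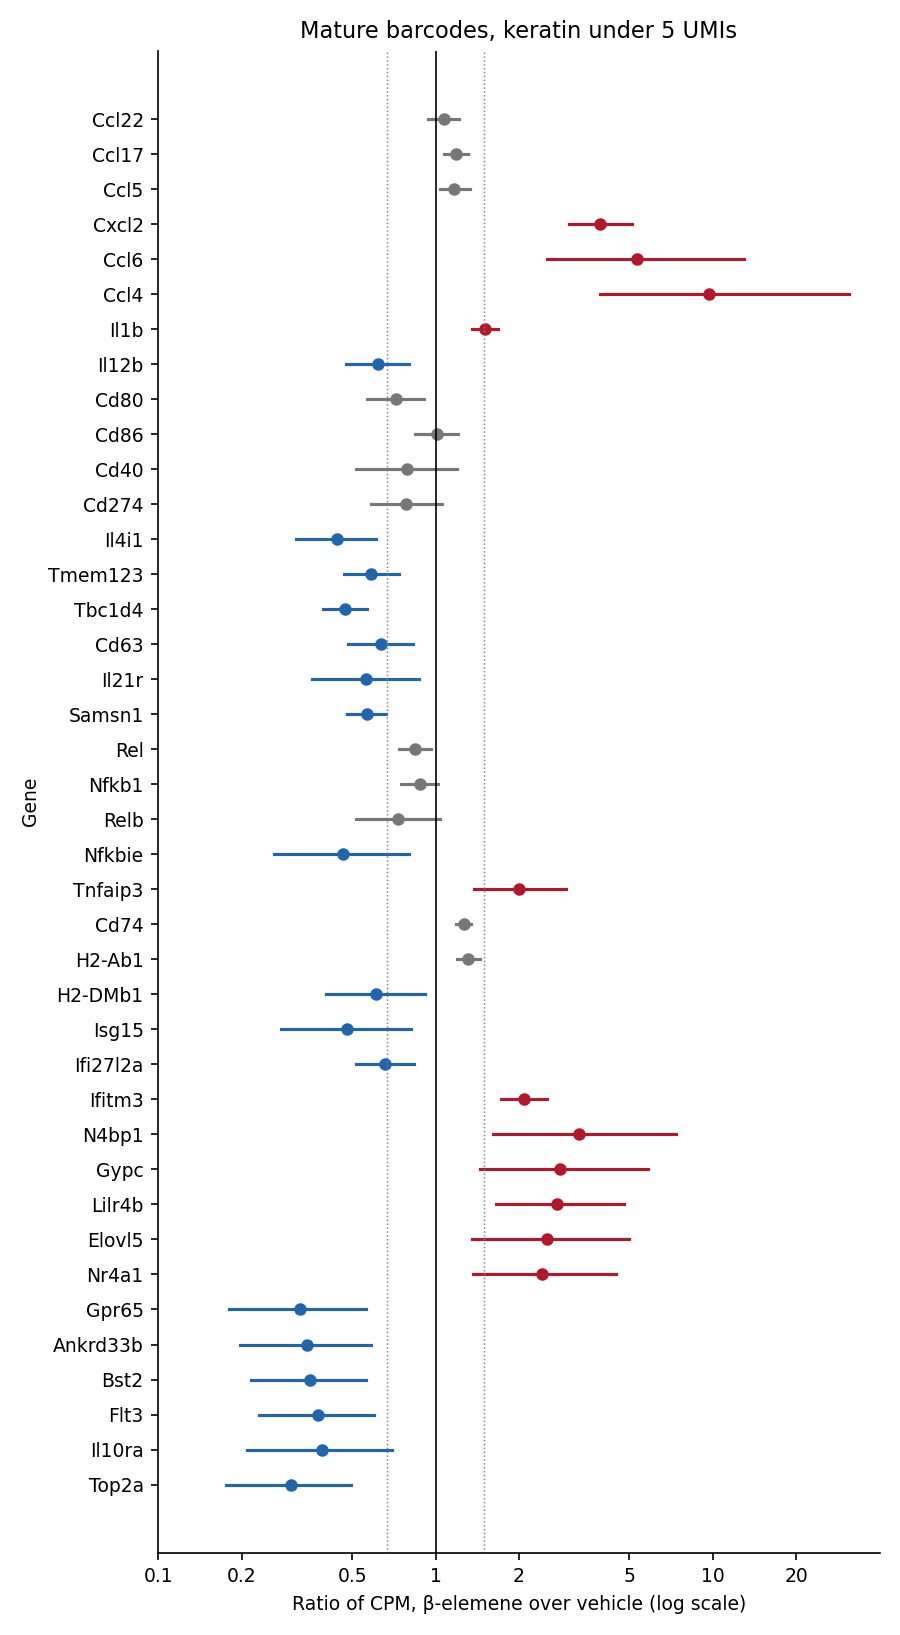
Ratio of CPM, β-elemene over vehicle, of 40 genes in the mature barcodes with fewer than 5 keratin UMIs (27 and 28), on a log axis. Bars are exact 95% intervals for counting error only, dotted lines mark the 1.5-fold limits, and red and blue mark genes past them higher and lower. Ccl22, Ccl17 and Ccl5 lie near 1, Il4i1, Tbc1d4 and Samsn1 to the left and Ccl4, Ccl6 and Cxcl2 farthest to the right.

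Over all 63 and 83 dendritic barcodes 5105 genes were compared, of which 189 were past 1.5-fold higher with β-elemene (3.7%) and 601 lower (11.8%). The median over all genes was -0.11, and with scaling by the median of ratios 300 were higher and 427 lower. The mix of kinds and the keratin barcodes differ between the libraries, and their part in these counts was not separated except where a kind is given above. Of the class II genes 3 of 11 were past the fold higher, beside the 3.7% (log2 median 0.50), and of the cell cycle genes 13 of 20 lower, beside the 11.8% (log2 median -0.92). The median of the interferon gamma group, -0.063 over 19 genes, was 0.0448 with scaling by the median of ratios and 0.29 without barcodes that held markers of another cell type, so its sign depended on the setting over the kinds together.

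The 10 highest ratios over all dendritic barcodes were led by Cd69, an early activation receptor (6.65 and 40.5 CPM, ratio 6.09, 2.59 to 17.5, in 6 and 16 barcodes), and Cass4 (4.43, in 5 and 30). Cd300c2, an activating receptor of myeloid cells, was 18.8 and 80.1 CPM (ratio 4.25, 2.51 to 7.63) and had a UMI in 13 of 63 and 48 of 83 barcodes. It was also higher in the macrophage (1.33), monocyte (1.37), malignant (1.47) and T cell (1.635) gates. Ltb4r1 (3.99), Hhex (3.36), Ifitm6 (3.17), Entpd1 (3.09), Tent5a (3.06), Lilr4b (3.04) and Ctla2b (3.02) completed the 10. Among the 10 lowest, Rad51b (0.262), Hells (0.265), Top2a (338 and 97.6 CPM, 0.289), Diaph3 (0.303) and Mki67 (194 and 66.3 CPM, 0.342) belong to DNA repair and division, and the integrin Itga2 had the lowest ratio (0.227). Ifi209 (0.298), Coro2a (0.315), Rnf220 (0.317) and Ergic1 (0.320) made up the rest.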

How the data were processed

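The deposited values were raw UMI counts for 32285 genes, one matrix for each of 2 libraries, made by the authors with Cell Ranger 7.1.0 per the file headers. STAR and the mm10 build are named per the submitters' processing notes. Kept barcodes had at least 200 genes and at most 20% mitochondrial UMIs. Ratios between libraries used UMIs summed over barcodes and an exact Poisson interval conditional on both counts; shares have exact binomial (Clopper-Pearson) intervals. No test or p-value was computed, since each group had 1 library. The members, the 34 gene lists and the comparisons were chosen with earlier results of these data known. A list's median was taken where at least 3 members had 50 UMIs; genes of a list with fewer were not summarised, and a few listed symbols were not analysed here.

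Single genes were named by rule: the 10 (all kinds) or 5 (1 kind) highest and lowest ratios past 1.5-fold, with, in the higher library, a UMI in at least 10% of barcodes, at most 25% of UMIs in 1 barcode and a CPM no lower than over all kept barcodes. Between kinds, the rule took the 10 highest of the lower of both libraries' folds, among genes with at least 50 UMIs in the kind and a UMI in at least 20% of its barcodes in each library. Mitochondrial, ribosomal, haemoglobin, immunoglobulin and receptor segment genes and unnamed models were not eligible. Beside a list, the most abundant and most extreme members are given. Other settings of the selection, scaling, pseudocount (20 CPM), UMI minimum, doublets (Scrublet in scanpy 1.11.5) and single barcodes were tried. Summing and ratios were checked on simulated data, in Python 3.11.15 with numpy 2.4.6, scipy 1.17.1 and pandas 2.3.3. Positions are from GENCODE vM21. One gene of the lists is not reported here.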

Additional observations from a re-analysis of the deposited data

How the results depend on the processing

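Counts of genes moved with the settings, and some group medians changed sign. With the Cd74-positive, C1q-low denominator, chosen after seeing the data, the differences in share were 0.65 points for type 1-like barcodes, -0.809 for the mature kind and 0.34 for the type 2 kind; 45 other values for shares, over the filters, thresholds, order, doublets, no C1q ceiling (added after seeing the data) and thinning to 3000 UMIs, moved by less than their interval. Genes past 1.5-fold higher over all dendritic barcodes numbered 300 with median-of-ratios scaling, 99 with 20 CPM added, 123 with at least 100 UMIs and 79 with equal weight of the kinds. Those lower numbered 354 with 20 CPM added, 911 with at least 20 UMIs, 322 with at least 100 UMIs and 266 without barcodes that carry markers of another type. In type 1-like barcodes 64 were higher with at least 100 UMIs. There 132 were lower without the UMIs of each gene in its top barcode, 435 with at least 20 UMIs and 86 with at least 100. In the mature kind 314 were higher with at least 20 UMIs, 112 with at least 100, 113 without other-type barcodes and 123 without keratin barcodes (added after seeing the data), and 614, 189, 121 and 130 were lower. A higher UMI minimum tests fewer genes; for the other settings the cause was not tested.

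The median log2 ratio of the interferon gamma group over all dendritic barcodes, -0.063, was 0.0448 with median-of-ratios scaling and 0.29 without other-type barcodes. In the mature kind, at -0.27, it was 0.13 without other-type and 0.0509 without keratin barcodes. There the class I median, 0.12, was -0.0668 without other-type barcodes. The type I interferon median was -0.81 as a mean over barcodes, -0.65 without other-type and -0.60 without keratin barcodes. The cell cycle median was -0.51 with 20 CPM added and -0.40 without called doublets. Single genes rested on 1 barcode in places: without its UMIs in the top barcode of each library, the totals kept, the ratio of Ccl5 in type 1-like barcodes, 2.75, was 0.304. No paired analysis was possible because each group has 1 library.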
